A study of Caenorhabditis elegans with 2 samples.

Results

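The heat shock genes described here are 10 genes listed by name: hsf-1, which encodes heat shock factor, and the chaperone genes hsp-1, hsp-70, hsp-16.1, hsp-16.2, hsp-16.41, hsp-16.48, hsp-12.6, hsp-6 and hsp-60. They are 10 of the 19973 protein-coding genes of the nuclear chromosomes, and calls of the transcription factor FOS-1 were collected in the span of each gene plus 5 kb to both sides. The windows held 14 of the 7446 calls in the list thresholded by IDR, the irreproducible discovery rate, which scores how well replicates agree in rank. FOS-1 occupancy was measured by chromatin immunoprecipitation and sequencing (ChIP-seq) of a FOS-1::eGFP fusion protein, in 2 biological replicates of 1 group of Caenorhabditis elegans larvae, whole animals of the L2 stage. All animals were of the strain OP304, genotype unc-119(ed3) III; wgIs304, in which wgIs304 is an integrated transgene that carries the fusion in addition to the endogenous fos-1 gene. Both sexes were pooled, the age is given as unknown, and the labels name no heat treatment and no second condition. Chromatin of the whole larva mixes all tissues, so occupancy in a few cells and weak occupancy in many cannot be told apart.

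Heat shock factor, HSF-1, is held inactive by chaperones in unstressed cells. On stress it forms trimers that bind heat shock elements, which are inverted repeats of a short GAA unit, and activates chaperone genes. The Hsp70 proteins HSP-1 and HSP-70 fold client proteins in the cytosol, and the small heat shock proteins of the hsp-16 family bind unfolded proteins and are almost silent without stress. HSP-6 and HSP-60 are the Hsp70 and the chaperonin of mitochondria, and their genes are common reporters of the mitochondrial unfolded protein response. FOS-1 belongs to the Fos family of basic leucine zipper factors, which bind AP-1 sites as dimers.

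The deposited signal value of each call is the authors', as their peak caller wrote it, and it is not normalized between lists. Rank 1 is the call of highest signal in a list. The IDR list held signal values from 33.9 to 702 with a median of 64.5. The relaxed lists, which also hold weak calls, had 28259 calls for the pooled data, 29339 for replicate 1 and 28938 for replicate 2. The read depth behind them is unknown.

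The hsp-16 genes form divergent pairs, and the sequence between the genes of each pair is shown because one pair carried an FOS-1 summit there and the other did not. All sequences are from the + strand of the WBcel235 assembly (ce11) as held by NCBI RefSeq. Capitals mark the 3-unit heat shock elements and the 8-base site GACGCAGA, which here lies on the other strand as TCTGCGTC. The first sequence is chrV:1804958-1805187, the whole space between hsp-16.2 and hsp-16.41 with the first 10 bases of hsp-16.41, and the second is chrV:9087783-9088082, which runs from the start of hsp-16.1 towards hsp-16.48.
hsp-16.2 and hsp-16.41: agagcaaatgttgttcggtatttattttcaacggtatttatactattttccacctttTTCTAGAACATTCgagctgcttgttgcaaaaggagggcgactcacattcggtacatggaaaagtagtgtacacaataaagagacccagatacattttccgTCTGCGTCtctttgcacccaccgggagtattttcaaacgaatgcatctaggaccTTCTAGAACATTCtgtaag
hsp-16.1 and hsp-16.48: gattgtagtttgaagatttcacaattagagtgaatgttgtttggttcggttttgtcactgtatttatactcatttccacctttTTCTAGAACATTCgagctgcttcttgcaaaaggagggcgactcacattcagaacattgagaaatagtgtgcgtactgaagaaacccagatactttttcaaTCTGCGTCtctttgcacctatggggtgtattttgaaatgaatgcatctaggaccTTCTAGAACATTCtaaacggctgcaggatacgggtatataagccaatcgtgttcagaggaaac
Both sequences hold 2 identical 3-unit elements whose starts are 154 bp apart, with the 8-base site between them. Over the 167 bp from the first element to the end of the second, 146 bases were identical, or 87.4%.

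The next sequences are from the IDR calls in the promoters of hsp-1, hsp-6 and hsp-60, and are shown because these were the strongest promoter calls of the 10 genes. They are chrIV:17278474-17278670 for hsp-1, chrV:4827052-4827197 for hsp-6 and chrIII:1619042-1619197 for hsp-60, which starts before the call at 1619054 to show the element at its edge. Capitals mark heat shock elements, the GATA site and the GAGAGAG repeat.
hsp-1: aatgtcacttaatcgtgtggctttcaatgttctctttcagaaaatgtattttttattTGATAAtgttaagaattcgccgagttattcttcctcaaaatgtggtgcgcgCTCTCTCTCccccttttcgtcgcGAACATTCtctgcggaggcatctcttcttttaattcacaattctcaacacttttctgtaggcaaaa
hsp-6: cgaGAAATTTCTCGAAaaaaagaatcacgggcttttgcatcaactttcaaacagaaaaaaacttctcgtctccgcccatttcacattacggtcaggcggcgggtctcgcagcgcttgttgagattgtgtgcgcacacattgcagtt
hsp-60: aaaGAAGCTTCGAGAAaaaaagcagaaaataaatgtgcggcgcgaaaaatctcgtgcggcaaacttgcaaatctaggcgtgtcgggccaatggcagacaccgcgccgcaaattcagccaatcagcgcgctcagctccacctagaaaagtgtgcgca
The hsp-6 and hsp-60 stretches each hold a 3-unit heat shock element at the left end. The hsp-1 stretch has a GATA site, overlapping GA repeats read on the other strand, and a 2-unit element.

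Distal calls are shown for contrast. The stretch chrV:9086020-9086120, beyond the 3′ end of hsp-16.1, held the only AP-1 site within 50 bp of a summit among the 14 calls, at TGACTCA, and 3 GATA sites, all in capitals. The stretch chrIV:9444483-9444665 was the strongest of the 14 calls, downstream of hsp-12.6, and held none of the patterns searched. Its summit was 550 bp upstream of the start of another gene, F38E11.9, and so within a promoter window of that gene.
beyond hsp-16.1: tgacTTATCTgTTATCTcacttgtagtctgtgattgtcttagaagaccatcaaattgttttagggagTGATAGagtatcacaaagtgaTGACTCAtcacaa
downstream of hsp-12.6: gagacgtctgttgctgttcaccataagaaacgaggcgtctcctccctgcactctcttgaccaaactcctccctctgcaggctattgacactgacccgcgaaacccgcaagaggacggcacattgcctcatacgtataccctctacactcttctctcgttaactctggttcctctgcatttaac

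Of the 10 genes, 9 had an IDR call in the window, against 57.6% of all protein-coding genes and 57.4% of the 17766 genes whose windows were as long as these, from 10487 to 19579 bp. The exception was hsf-1. The 10 windows are not independent: hsp-16.1 and hsp-16.48 were counted through 1 shared call, and hsp-16.2 and hsp-16.41 through another. Joined windows held 1.31 IDR calls per 10 kb, and the joined windows of all protein-coding genes 0.752. An IDR summit in the promoter window, from 1000 bp upstream to 250 bp downstream of a protein-coding start, was found for 5 of the 10, against 23.4% of all genes. These were hsp-1, hsp-6, hsp-60, hsp-16.2 and hsp-16.41, the last 2 through the same call. For 3 of the 10, hsp-1, hsp-60 and hsp-16.41, no other gene's start was nearer to such a summit, against 19.2% of all genes. For hsp-60 that was the summit before its internal start. Every one of the 10 had a pooled relaxed call in the window, against 80.0% of all genes, and calls in both replicates, against 79.0%. The median distance from the 14 summits to the nearest start of any gene was 581 bp, and it was 564 bp over all IDR calls. The design has 1 group, so these counts are descriptions with no test.

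**Figure D1:**
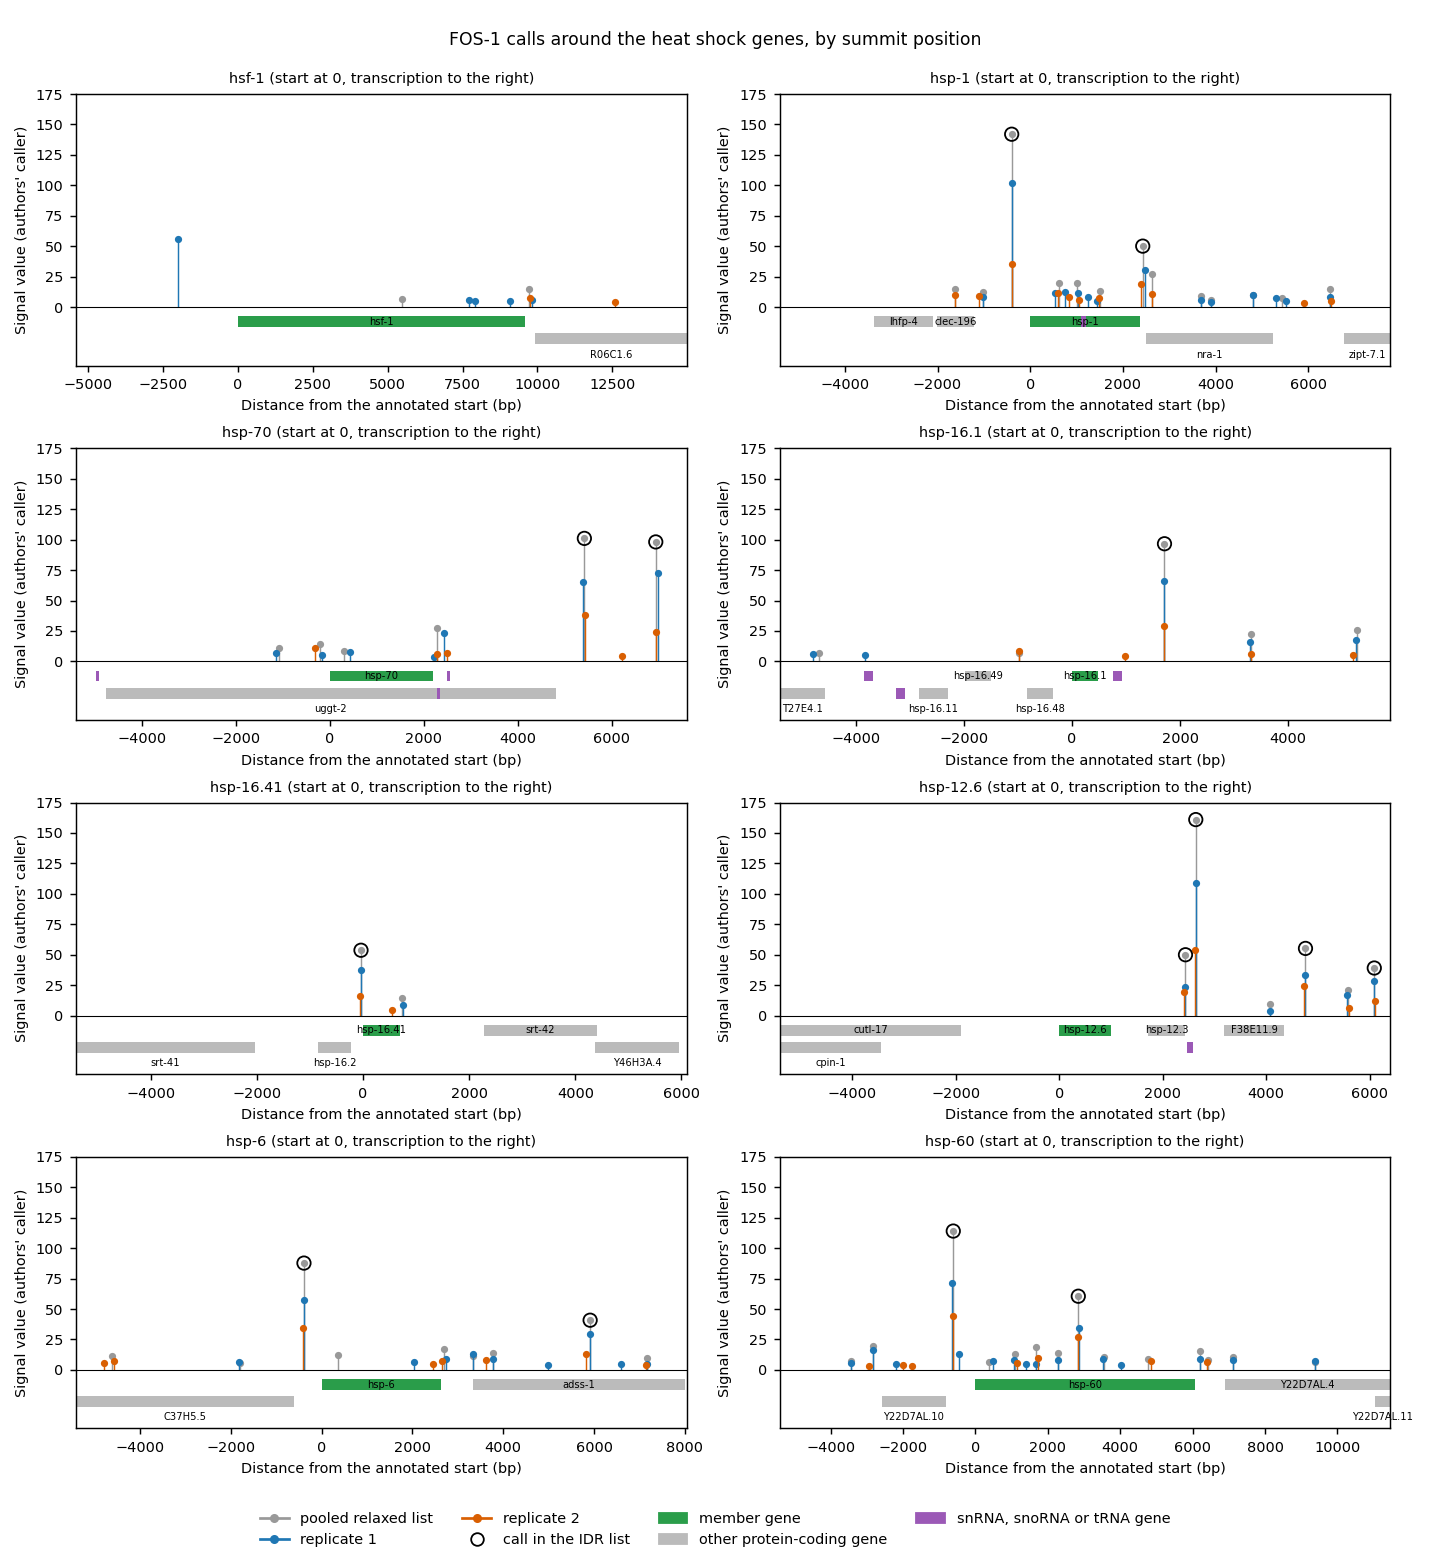
Calls around the heat shock genes, 1 panel for each of 8 loci, with the distance of the summit from the annotated start on the x axis (bp, transcription to the right) and the authors' signal value on the y axis. Gray, blue and orange points are calls of the pooled relaxed list, replicate 1 and replicate 2, black rings mark IDR calls, and boxes below 0 are genes. Calls with rings stand just upstream of hsp-1, hsp-6, hsp-60 and hsp-16.41, downstream of hsp-1, hsp-6, hsp-12.6, hsp-16.1 and hsp-70, within hsp-60, and nowhere in the hsf-1 panel.

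hsf-1 (WBGene00002004) lies on chromosome I from 11953507 to 11963085 on the − strand, with starts at 11963085 and 11961984. Its window held no IDR call and 2 pooled relaxed calls, with signal values of 14.7 at rank 13547 and 6.33 at rank 26336. The stronger of them was at the 3′ end of the gene, 8618 bp downstream of the second start, and both replicates had a call overlapping it, of 5.46 in replicate 1 and 7.40 in replicate 2. Neither replicate had a summit in the promoter window. Replicate 1 alone had a strong call 2006 bp upstream of the first start, with a signal value of 55.6 at rank 2655 of that list and a −log10 q-value of 4.27. Replicate 2 had no call within 5 kb of this summit, and no pooled call overlapped it. Among the 7446 strongest calls of replicate 1, 41 or 0.551% had no overlapping pooled call, and this one had the second highest signal of the 41. None of its sequence was repeated elsewhere in the genome at a length of 36 bases. The call therefore rests on 1 library.

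Regulators of HSF-1 had FOS-1 calls at their own promoters in 3 of 6 cases, against 23.4% of all protein-coding genes. The summit 419 bp upstream of ccar-1, which encodes a negative regulator of HSF-1, had a signal value of 63.2. It was 30.1 in replicate 1 and 30.3 in replicate 2. The summit of hpk-1, a homeodomain-interacting protein kinase gene, lay 766 bp downstream of its nearest start. It was counted because it was less than 1000 bp upstream of another, internal start of hpk-1. It had 53.7 in the IDR list, 43.5 in replicate 1 and 13.9 in replicate 2. hsb-1 encodes the heat shock factor binding protein. Its call was near the end of the IDR list, 35.7 at rank 7142, and had a counterpart of 34.1 in replicate 1 and none in replicate 2. No IDR summit was in the promoter windows of ddl-1, ddl-2 and sir-2.1.

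hsp-1 (WBGene00002005), the constitutive cytosolic Hsp70 gene, had the strongest promoter call of the 10 genes. It lies on chromosome IV from 17278959 to 17281330 on the + strand. The summit, in intergenic sequence 400 bp upstream of the start, had a signal value of 142 at rank 632 of the IDR list. It was 102 at rank 580 in replicate 1 and 35.8 at rank 1364 in replicate 2, and the replicate summits were within 3 bp of it. Of the genes with a promoter summit, 9.76% had a signal at or above this. The call was 197 bp wide, against a median of 344 bp over the IDR list. Narrow calls were frequent among strong ones: 13.9% of all IDR calls and 46.8% of the strongest 2000 were under 200 bp. A further IDR call of 50.1 lay beyond the 3′ end of hsp-1, towards nra-1, 2428 bp from the start, with 30.3 in replicate 1 and 18.6 in replicate 2.

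Weak calls also ran through the hsp-1 gene body. With 13 pooled relaxed calls in the window, 4 of them overlapping the gene, hsp-1 had 1.69 such calls per kb of gene, a density reached by 3.45% of protein-coding genes. That density includes the IDR call of 50.1, which overlapped the 3′ end of the gene but had its summit beyond it. The weak calls, with summits 627, 1019 and 1510 bp into the gene, had signal values of 19.7, 20 and 12.9, far under the promoter call. Each of the 3 had calls of both replicates near its summit. Replicate 1 gave 11.2, 12.1, 11.9, 7.95 and 4.74 between 526 and 1451 bp, and replicate 2 gave 11.6, 8.08, 5.67 and 7.78 between 596 and 1493 bp. The input library was not analysed here, and what background there was at this gene was not tested.

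hsp-70 (WBGene00002026), the stress-inducible Hsp70 gene, had no IDR summit in its promoter window. It lies on chromosome I from 9320325 to 9322519 on the − strand, within the larger gene uggt-2 on the other strand. The pooled relaxed list had a summit 211 bp upstream of its start, with a signal value of 13.9 at rank 14134 and a −log10 q-value of 1.30. Replicate 1 had 4.94 at rank 23276, 159 bp upstream, and replicate 2 had 10.6 at rank 7874, 314 bp upstream. The −log10 q-value was 0.24 in replicate 1 and 4.22 in replicate 2. The signal was low in replicate 1. In replicate 2 the −log10 q-value equalled that of the strongest replicate 2 call in these windows, of 53.9. The signal of 10.6 was just under 11.7, the lowest replicate 2 value at the IDR calls of these windows. The replicates differed, with the stronger call in replicate 2, although signal values were mostly higher in replicate 1. The IDR calls of the window lay 5418 and 6938 bp downstream of the hsp-70 start, beyond its 3′ end, and both were nearer to other genes. The first, 129 bp wide, had 101 at rank 1658 and lay 612 bp from the start of uggt-2, which encodes a homologue of a glycoprotein glucosyltransferase. It had 65.5 in replicate 1 and 38.2 in replicate 2. The second had 98.1 at rank 1754 and lay 690 bp from the start of F26H9.5, with 72.5 in replicate 1 and 24.5 in replicate 2.

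Among other Hsp70, Hsp110 and Hsp90 genes, 9 of 10 had an IDR summit in the promoter window, against 23.4% of all genes. hsp-110, an Hsp70 relative that exchanges the nucleotide of Hsp70, had 215 at rank 144, which is above each of the 14 calls described here. It had 141 in replicate 1 and 75.3 in replicate 2. stc-1, an Hsp70-like gene, had 203 at rank 179, hsp-3, a BiP gene of the endoplasmic reticulum, had 173 at rank 339, and hsp-90, the cytosolic Hsp90 gene, had 134 at rank 797. The start nearest to the summit was that of another gene for hsp-110 (rpn-3), stc-1 (F54C9.3) and hsp-90 (C47E8.4). Counting only summits for which the gene's own start was nearest left 5 of the 10, against 19.2% of all genes.

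Co-chaperones, the proteins that steer Hsp70 and Hsp90, had a promoter summit in 10 of 15 cases, against 23.4% of all genes, and in 5 of 15 with their own start nearest, against 19.2%. The strongest were bag-1, a nucleotide exchange factor, with a signal value of 151 at rank 510, and unc-23, another BAG-domain gene, with 131 at rank 850. The Hsp40 gene dnj-13 had 107 at rank 1431. The Hsp90 activator gene ahsa-1 had 105 at rank 1501, with a nearer start of C01G10.7.

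**Figure D2:**
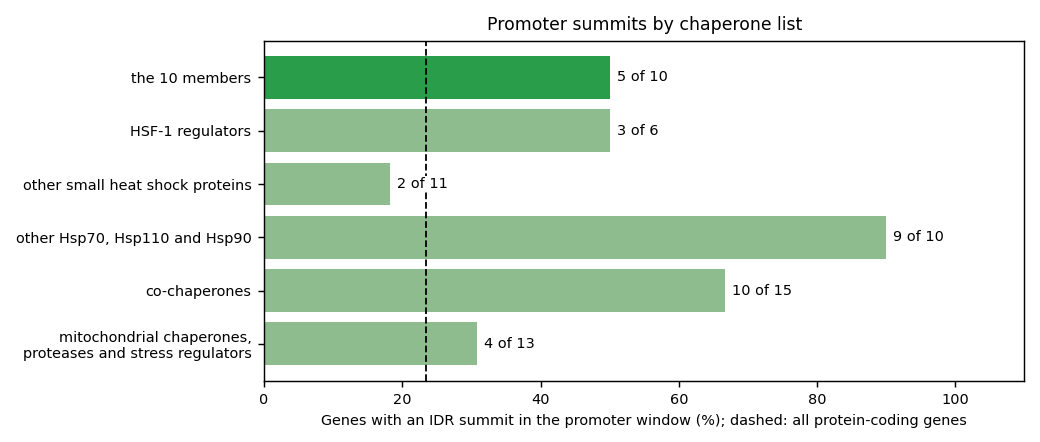
Share of genes with an IDR summit in the promoter window (x axis, percent) for the 10 genes and for 5 lists of related genes, with the counts beside the bars. The dashed line is the share over all protein-coding genes, 23.4%; the bars run from 2 of 11 for other small heat shock proteins to 9 of 10 for other Hsp70, Hsp110 and Hsp90 genes.

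hsp-16.2 and hsp-16.41 shared 1 IDR call, which covered most of the space between them. hsp-16.2 (WBGene00002016) lies on chromosome V from 1804334 to 1804957 on the − strand, and hsp-16.41 (WBGene00002018) from 1805178 to 1805875 on the + strand. The call had a signal value of 53.7 at rank 4735, and its summit was 36 bp upstream of hsp-16.41 and 185 bp upstream of the start of hsp-16.2 nearer to it. The annotated start of hsp-16.41, at 1805178, falls inside the 3-unit element from 1805169 to 1805181. The distance of 36 bp holds for that annotated start only. Replicate 1 had 37.4 at rank 4698 and replicate 2 had 16.4 at rank 5065. The ranks in the 3 lists were close, and the signal was moderate: 66.7% of genes with a promoter summit were at or above it. The summit lay between the 3-unit elements of the first sequence shown, 33 bp from the centre of one and 121 bp from that of the other, and 23 bp from the 8-base site. A further pooled call of 14.8 at rank 13512 lay at the 3′ end of hsp-16.41.

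The hsp-16.1 and hsp-16.48 pair had no IDR call between its genes, but this locus is duplicated. hsp-16.1 (WBGene00002015) lies on chromosome V from 9087293 to 9087782 on the − strand, and hsp-16.48 (WBGene00002019) from 9088131 to 9088617 on the + strand. An identical inverted copy of 1881 bp, from 9089156 to 9091036, holds the genes hsp-16.49 and hsp-16.11. Of the 1325 bp from hsp-16.1 to hsp-16.48, 100% were repeated at lengths of 36, 50 and 100 bases, against 7.93%, 6.49% and 4.16% of positions in the genome. Reads from inside such a repeat cannot be assigned to 1 copy, and how the authors treated them is not given in the sources used here. Of all IDR calls, 13 or 0.175% had more than 50% of their positions repeated at 36 bases. A lack of calls in either copy therefore cannot be told apart from a lack of reads that map to 1 place. The pair hsp-16.2 and hsp-16.41 was repeated at 0.908% of its 1542 bp at 36 bases and at none at 50.

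Calls did appear at the edges of the duplication. The IDR call of this window lay outside the repeat, 1712 bp downstream of the start of hsp-16.1 and 2061 bp upstream of that of hsp-16.48. It had 96.6 at rank 1809, with 66.2 in replicate 1 and 29.2 in replicate 2, none of its sequence was repeated at 36 bases, and its summit was 788 bp from the snRNA gene T27E4.11. It is the sequence with the AP-1 site, whose centre was 41 bp from the summit. On the other side, the pooled list had 1 weak call of 7.14 at rank 23907, with 8.88 at rank 9234 in replicate 2 and no call of replicate 1. That call began in the last bases of hsp-16.48, and 32.3% of it was repeated at 36 bases. Its summit, at 9088768, lay beyond the gene and beyond the repeat, which ended at 9088741.

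hsp-12.6 (WBGene00002013), a small heat shock protein gene known as a target of the forkhead factor DAF-16, had the most IDR calls, 4, and none of them near its start. It lies on chromosome IV from 9446229 to 9447228 on the − strand, and no pooled relaxed call overlapped the gene or its promoter window. All 4 lay beyond its 3′ end, from 2439 to 6089 bp downstream of the start. The strongest had a signal value of 161 at rank 430, with 109 at rank 477 in replicate 1 and 53.9 at rank 391 in replicate 2. Its summit was 52 bp from the snRNA gene F38E11.11 and 550 bp from the start of F38E11.9. The next, of 50 at rank 5158, overlapped it on the other side of that snRNA gene, 718 bp from the start of hsp-12.3, another small heat shock protein gene. At 36 bases 14.2% and 26.7% of these 2 calls were repeated. The other 2, of 55.2 and 39.1, lay 1362 and 32 bp from the start of idh-1, an isocitrate dehydrogenase gene. The one of 39.1 reached the window with its edge and had its summit outside it.

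Of 11 other small heat shock protein genes, 2 or 18.2% had a promoter summit, near the 23.4% of all genes. They were sip-1, with 93.2 at rank 1966, whose nearest start was that of sly-1, and hsp-17, with 81.1 at rank 2601, whose own start was nearest. hsp-12.3, hsp-16.11 and hsp-16.49 were among the 9 without one, the last 2 being in the duplicated locus.

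hsp-6 (WBGene00002010), the mitochondrial Hsp70 gene, lies on chromosome V from 4824124 to 4826760 on the − strand. Its promoter call had a signal value of 87.7 at rank 2221, with the summit 387 bp upstream of the start, and 32.6% of genes with a promoter summit were at or above it. It had 57.1 at rank 2531 in replicate 1 and 34.1 at rank 1517 in replicate 2. The call lay between hsp-6 and the divergent gene C37H5.5, whose start was nearer, at 213 bp, and the noncoding RNA genes C37H5.15 and C37H5.16 spanned the summit. The other IDR call of the window, of 40.8 at rank 6305, was in an intron of adss-1, an adenylosuccinate synthetase gene, with 29.2 in replicate 1 and 13 in replicate 2.

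hsp-60 (WBGene00002025), the mitochondrial chaperonin gene, had IDR calls at both of its start regions. It lies on chromosome III from 1619742 to 1625803 on the + strand. The first call, 144 bp wide, had a signal value of 114 at rank 1192 and a summit 613 bp upstream of the first start. It had 71.5 at rank 1568 in replicate 1 and 44.6 at rank 762 in replicate 2. It was nearer, at 200 bp, to the start of the divergent gene Y22D7AL.10, which encodes the HSP10 partner of the chaperonin, so 1 call lay between the genes of both subunits of this folding chamber. The second call, of 60.5 at rank 4076, lay in an intron of hsp-60, 545 bp upstream of the internal start at 1623128, with 34.2 in replicate 1 and 26.9 in replicate 2. Pooled relaxed calls numbered 14 in the window and 8 overlapping the gene, or 1.32 per kb, a density reached by 5.95% of genes.

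Among other mitochondrial chaperones, proteases and stress regulators, 4 of 13 or 30.8% had a promoter summit, each with its own start nearest. This was near the shares over all genes, 23.4% and 19.2%. Y22D7AL.10 was one of them through the call it shared with hsp-60. atfs-1, the transcription factor that directs the mitochondrial unfolded protein response, had 111 at rank 1293, with 87.5 in replicate 1 and 23.8 in replicate 2. The protease gene ymel-1 had 65.4 at rank 3635 and the Hsp40 gene dnj-10 had 41.5 at rank 6207.

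The 14 IDR calls had counterparts in both replicates, as did 7379 of all 7446 IDR calls, so this was not particular to these genes. The signal of replicate 1 was 1.20 to 2.96 times that of replicate 2 at these calls, against a median of 2.19 and quartiles of 1.73 and 2.88 over 7379 IDR calls. The lists were not normalized to each other, so ranks compare them better. The strongest call, downstream of hsp-12.6, was within the first 500 ranks of each list. The promoter call of hsp-1 ranked higher in replicate 1, at 580 against 1364, as did the call near F26H9.5, at 1520 against 2850. The promoter call of hsp-60 departed the other way, rank 1568 against 762. The call nearest to hsp-12.3 was at rank 7465 in replicate 1 and 3939 in replicate 2, so it was outside the strongest 7446 calls of replicate 1.

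**Figure D3:**
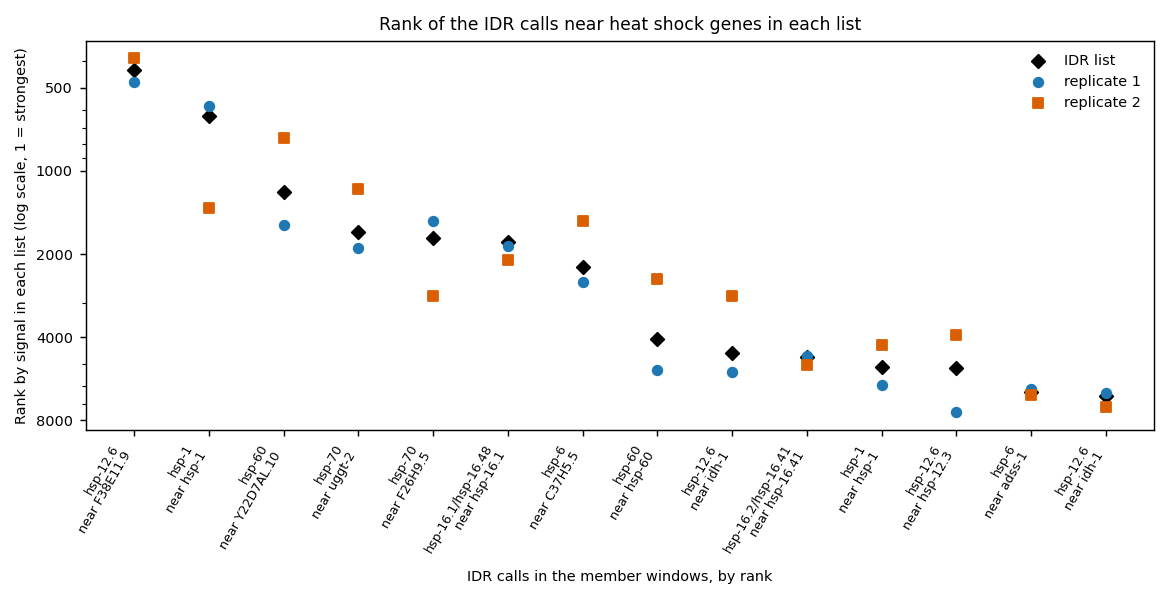
Rank by signal (y axis, log scale, strongest at the top) of the 14 IDR calls in the IDR list, replicate 1 and replicate 2, ordered by IDR rank along the x axis and named by the heat shock gene and the gene with the nearest start. The calls run from rank 430 to rank 6539 of the IDR list, and the markers of the replicates lie on both sides of it.

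Of the pooled relaxed calls in the windows, 42 overlapped no IDR call. Their signal values ran from 5.77 to 27.3 with a median of 12. Calls of both replicates overlapped 21 of them, against 47.3% of the 20145 such calls in the genome. The highest, 27.3 at rank 8851, lay at the 3′ end of hsp-70 with its summit within a tRNA gene, and 15.1% of it was repeated at 36 bases. It was the only one of the 42 at the ceiling of the q-value, 4.25 on the −log10 scale.

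The top signal in each window lay from 53.7 to 161 for the 9 genes with an IDR call. At or above hsp-12.6 were 10.6% of such genes, at or above hsp-1 14.9%, at or above hsp-60 25.9%, and at or above hsp-70 34.2%. The share was 36.8% for hsp-16.1 and hsp-16.48, 44.2% for hsp-6 and 76.5% for hsp-16.2 and hsp-16.41. For hsp-12.6, hsp-70, hsp-16.1 and hsp-16.48 the top call was not in the promoter window.

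**Figure D4:**
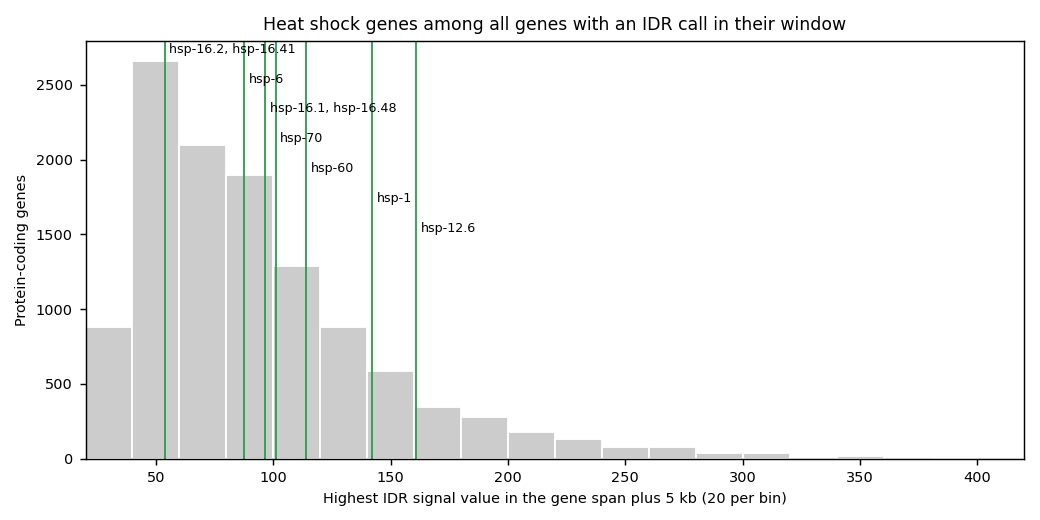
Histogram of the highest IDR signal value in the gene span plus 5 kb (x axis, 20 per bin) over protein-coding genes with an IDR call in that window (y axis, number of genes). Green lines mark 9 of the heat shock genes, from 53.7 for hsp-16.2 and hsp-16.41 to 161 for hsp-12.6; the few genes beyond the axis are not drawn.

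Sites were searched around the summits on both strands. The AP-1 site was TGACTCA or its reverse complement TGAGTCA, and the CRE site was TGACGTCA. The GATA site was AGATAA, also with T as the first base or with G as the last base or with both changes. The extended GATA site was TGATAAG, which contains a GATA site. The E-box was CACGTG. The repeat GAGAGAG, the 8-base site GACGCAGA and heat shock elements were searched in the same way. The 2-unit heat shock element is GAANNTTC or TTCNNGAA, and the 3-unit element adds another unit in the alternating orientation, so it always contains 2-unit elements. Within 50 bp of the summit a GATA site was in 7 of the 14 calls, against 52.9% of all IDR calls, and the extended site was in 0, against 22.8%. Within 100 bp the extended site was in 3, against 29.6%. Again within 50 bp, an AP-1 site was in 1, against 3.55%, and CRE in 0, against 0.819%. GACGCAGA was in 1, against 5.33%, GAGAGAG in 2, against 9.83%, and the E-box in 2, against 3.98%. A match describes letters in a window and is not a measured site.

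Heat shock elements lay within 100 bp of the summits of the promoter calls, and in 1 of these calls within 50 bp. Within 50 bp, the 2-unit element was in 1 of the 14 calls, that between hsp-16.2 and hsp-16.41, against 5.98% of all IDR calls, and within 100 bp it was in 6, against 14.7%. The 3-unit element was within 100 bp of the summit in 3 of the 14, against 0.819%. These were the calls of hsp-16.2 and hsp-16.41 at 33 bp, hsp-60 at 78 bp and hsp-6 at 86 bp. The hsp-60 element, from 1619045 to 1619057, began before its narrow call, which starts at 1619054, and overlapped it in its last bases. Of the 5 calls with a summit in a promoter window of these genes, 5 had a 2-unit and 3 had a 3-unit element within 100 bp, against 15.5% and 1.07% of 4221 IDR calls in promoter windows. Within 50 bp, 1 of the 5 had each element, against 6.04% and 0.284%. The comparison of promoter calls was chosen after the values were seen. The genes were chosen by name as heat shock genes, so a share of heat shock elements in their promoters depends on that choice. It is no support for FOS-1 at these elements, which was not tested.

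**Figure D5:**
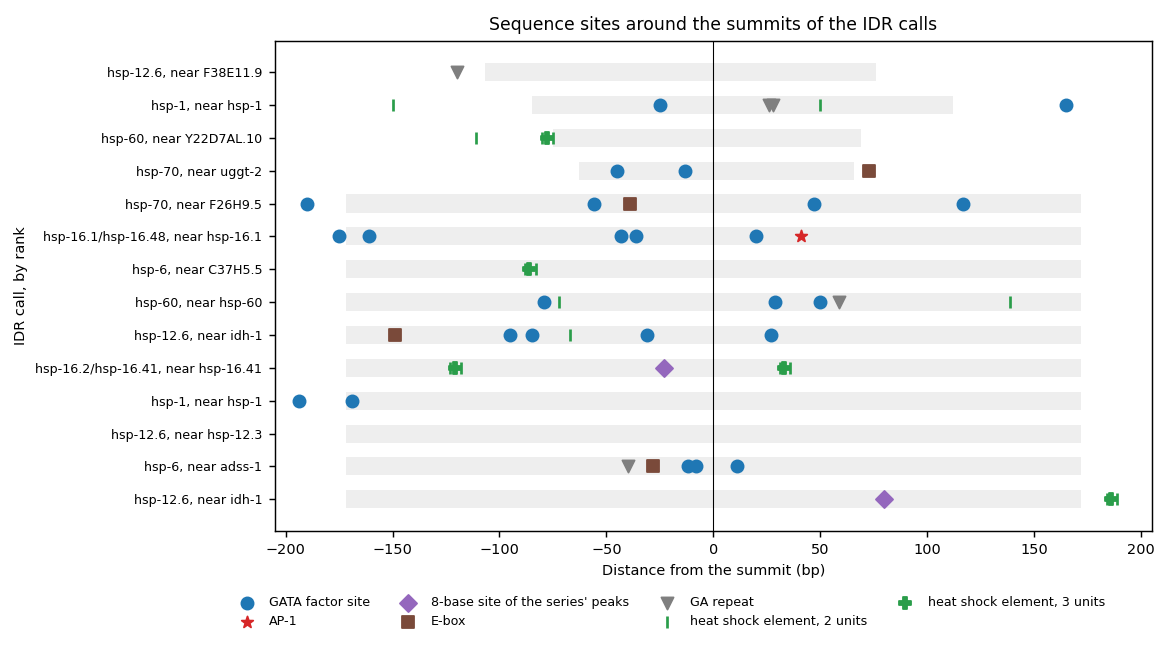
Positions of sequence sites around the summits of the 14 IDR calls (x axis, distance of the site's centre from the summit in bp; 1 row for each call, strongest at the top, named by heat shock gene and gene with the nearest start). Gray bars are the extents of the calls; green crosses, the 3-unit heat shock elements, stand within 100 bp of the summit in the calls of hsp-60, hsp-6 and the hsp-16.2 and hsp-16.41 pair.

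The proximal promoters themselves gave another picture. In the stretch from 250 bp before to 50 bp after the start, 6 of the 10 genes held a 3-unit element, against 1.96% of all protein-coding genes. They were hsp-1, hsp-70 and the 4 hsp-16 genes, whose stretches overlap or share sequence and are not independent. hsf-1, hsp-12.6, hsp-6 and hsp-60 held none there; the hsf-1 stretch had 6 GAGAGAG matches and 1 GATA site. In hsp-1 the 3-unit element lay in the stretch that begins at 17278709, outside the call, which ended at 17278670. GACGCAGA was in 4 of the 10 stretches, all of hsp-16 genes, against 3.00% of all genes. The AP-1 site was in 0, against 3.61%.

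Over all IDR calls, 15 or 0.201% had a 3-unit element within 50 bp of the summit. Of the 4221 IDR calls in promoter windows, 12 or 0.284% had one. Among the 30 distinct calls in promoters of the 10 genes or the related lists, 4 of the 15 were found. These were the call of hsp-110, that of ahsa-1, that of hsp-16.2 and hsp-16.41, and that shared by the inducible Hsp70 genes F44E5.4 and F44E5.5, of 50.4 at rank 5109. Together the 10 genes and the lists were 65 genes, of which 33 had a promoter summit, against 23.4% of all genes, in 30 distinct calls. For some of the 33, among them hsp-110, stc-1 and hsp-90, the start of another gene was nearer to the summit. Of the 30 calls, 9 held a 2-unit element within 50 bp of the summit, against 6.04% of the 4221 IDR calls in promoter windows. A GATA site was in 9, or 30%, below the 50% of all promoter calls. GACGCAGA was in 4, against 5.85%, and an AP-1 site in 0, against 3.51%. The genes were listed by name for their part in the heat shock response and protein folding. Their share of heat shock elements depends on that choice and is no support for FOS-1 at the elements. In 29 of the 30, both replicates had a call, the exception being hsb-1, and over all IDR calls 7379 of 7446 had both.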

How the data were processed

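FOS-1::eGFP ChIP-seq of L2 larvae had been processed to peak lists by the authors. Per the deposited manifests, a relaxed list was made for each replicate and for the pooled replicates, each with a control. The signal values and the −log10 q-values were used as deposited by the authors, and the summit offset was added to the start of each call. Neither the aligner nor the peak caller is given in the sources used here, and the input control was not analysed. The ce11 lists were used and the ce10 lists were not.

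Gene models were those of Ensembl release 115 (WBcel235). Where Ensembl gives 1 symbol to 2 gene models of the duplicated hsp-16 locus, RefSeq symbols of the same span were used. A call was counted with 1 bp in the window, and calls were ranked by signal. Repeated sequence was the share of positions whose 36-mer occurs again on either strand, with 50-mers and 100-mers as further lengths. No statistical test was made, since there was 1 group of 2 replicates. The members and lists were chosen with earlier results of these data known, and so were the sites searched, of which TGATAAG and GACGCAGA were picked on these peaks. Named genes are the 10 members, the gene with the start nearest to each of their IDR calls, and up to 4 genes of each related list with the highest promoter signal. Outside that rule, F44E5.4 and F44E5.5, the genes without a promoter summit that are listed by name, and genes that neighbour a call were named after their values were seen. Alternatives were other margins, windows and site distances, the 3723 calls of highest signal, and the strongest 7446 calls of each replicate alone. The scripts ran in Python 3.11.15 with NumPy 2.4.6 and Matplotlib 3.10.9 and were tested on simulated data.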

Additional observations from a re-analysis of the deposited data

How the results depend on the processing

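The count of genes with an IDR call in the window, 9 of 10, was 5 with a margin of 1 kb and between 7 and 9 under the other margins, the summit rule and the 3723 strongest calls. The 14 IDR calls became 6, 9 and 25 with margins of 1, 2 and 10 kb, and 7 among the 3723 strongest, so the number of calls near these genes depends on the window. The 5 genes with a promoter summit became 3 among the strongest calls and 3 when the gene's own start had to be the nearest. For the nearest start the share over all genes was 19.2%. Shares over all genes were not worked out for the other margins and windows, the strongest calls or single replicates. Those counts show how the result moves and not how it compares with all genes. The 1 call with a heat shock element within 50 bp became 6 within 100 bp and 5 over the whole call. The 7 calls with a GATA site became 0 with the extended site.

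With the strongest calls of a single replicate, the genes with a call in the window numbered 9 to 10, those with a promoter summit 5 to 5, and the calls 14 to 15. The tenth gene, with replicate 1 alone, was hsf-1. Of 34 alternatives, 24 left the count within 1.5 times its main value. Depth is unknown, so weak calls and missing calls cannot be weighed by it. No paired analysis was possible because there is 1 group.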
